A study of Mus musculus with 6 samples.

Results

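The genes described here are 39 mouse genes listed for moving, binding or sensing zinc, manganese and copper. They are metallothioneins and their regulator, zinc importers and exporters, manganese exporters with ATPases listed beside them, copper transporters, copper chaperones and metalloreductases. They were listed by name, by the metal they handle and the direction in which they move it, with earlier results of these data known; no measured value entered the rule. All 39 had a probe on the array, with 49 probes between them, and 34 were bright enough to be tested among 15535 genes. The other 5 genes, Slc39a4, Slc39a8, Slc30a3, Slc30a10 and Steap4, had a single probe each, which was not well above background on any of the 6 arrays, so no change is given for them.

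The cells were MC3T3-E1, an established mouse pre-osteoblast line from skull bone, kept on metal scaffolds for 3 days before their RNA was hybridised to 1-colour (Cy3) gene expression arrays. FeMnSi arrays (n = 3) hold RNA of cells on the original iron-manganese-silicon alloy scaffold. De-HA arrays (n = 3) hold RNA of cells on a scaffold of that alloy which was dealloyed and then given a coating of bioactive materials. No group without a scaffold was analysed here. The labels do not state whether the 3 samples of a group are separate cultures, and a p-value therefore reflects the spread among these 6 samples alone, part of which may be technical. De-HA thus differs from FeMnSi by 2 steps at once, dealloying and coating, whose parts cannot be told apart. In RNA from a whole culture, fewer cells of a type and less RNA per cell cannot be told apart.

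Zinc enters the cytosol through ZIP carriers (the Slc39 genes), from outside the cell or from its organelles, and leaves it through ZnT carriers (the Slc30 genes). When free zinc in the cytosol rises, the zinc-finger factor MTF1 binds metal response elements and turns on metallothioneins, which bind the metal, and Slc30a1, which exports it, so these genes are commonly read as a reporter of zinc load. Copper enters through Slc31a1 and is handed by chaperones to the pumps Atp7a and Atp7b, to superoxide dismutase and to cytochrome c oxidase. In bone, alkaline phosphatase needs zinc and lysyl oxidases, which crosslink collagen, need copper, so both metals serve the matrix that osteoblasts make.

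The labels name no slide. In the file headers, De-HA 1, 2 and 3 and FeMnSi 1 share a scan time and a scan identifier at different array positions, and FeMnSi 2 and 3 share another. Each such set of arrays is called a slide here, slide 1 and slide 2, an inference from the scans. Each change is given over all arrays and, where it matters, within slide 1, where 3 De-HA arrays stand against FeMnSi 1 alone. A fit with the slide as a block gives this same difference, since slide 2 holds no De-HA array. FeMnSi 2 and 3 then enter only the estimate of spread. Between 63.5% and 74.4% of probes were well above background on an array, the 75th percentile of signal lay between 582 and 720, and no spot of these arrays was saturated. All levels below are log2 signals minus the array's own 75th percentile, so 0 is that percentile, and no level of a gene is set against that of another, since probes differ in brightness. All 8 osteoblast markers (Runx2, Sp7, Alpl, Col1a1, Col1a2, Ibsp, Spp1 and Bglap2) were well above background on every array. The log2 of their summed signals, called the summed log2 level here, was 7.70 to 7.95 in De-HA and 7.47 to 7.69 in FeMnSi. The brightest probes weigh most in such a sum, here those of Col1a2 and Col1a1, neither of which passed. Runx2, Sp7, Alpl and Ibsp passed as higher and Spp1 as lower. Of the endothelial markers, Cdh5, Tek and Emcn were above background on no array, and Pecam1 and Kdr on all 6. Of the adipocyte markers, Adipoq and Cidec were above background on no array, Plin1 on 3, Lpl on 5, and Pparg and Fabp4 on all 6. Detection is counted by the probe of a gene that was above background on the most arrays. Further probes of Kdr and Lpl were above background on no array. The summed levels of the other cell types differed between the groups. Only the tested genes of a list enter its sum. The summed log2 level of Col2a1, Sox9 and Col10a1 (chondrocyte) was 4.43 to 4.49 in De-HA against 3.90 to 3.95 in FeMnSi. Of these only Col2a1 passed (1.11 in log2 difference), beside 0.15 for Sox9 and -0.26 for Col10a1. Acan, also on the chondrocyte list, was above background on every array but not tested, since its FeMnSi 3 spot was an outlier. It was 1.91, 1.89 and 1.31 in De-HA, 3.21 on FeMnSi 1 and 0.34 on FeMnSi 2. The summed log2 level of Pparg, Plin1, Lpl and Fabp4 (adipocyte) was -2.25 to -2.05 against -1.74 to -1.53. It was -0.32 to -0.17 against -0.67 to -0.62 for Pecam1 and Kdr (endothelial). Epcam and Cdh1 (epithelial) gave -3.42 to -3.04 against -4.04 to -3.71. The 5 macrophage genes with a probe were each above background on every array by at least 1 probe. A further Adgre1 probe was above background on no array, and a further Csf1r probe only on 1 De-HA array. The summed log2 level of these genes was 0.18 to 0.38 in De-HA against -0.19 to 0.17 in FeMnSi. Within a list the markers did not all run the same way: Adgre1 (0.77) and Ptprc (0.55) passed as higher and Trem2 (-1.70) and Lyz2 (-0.39) as lower in log2 difference. In the adipocyte list Fabp4 passed as lower (-1.99), beside 0.94 for Lpl and 0.29 for Plin1. The part of these differences in the results below was not tested.

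Few of the metal handling genes passed the test between the scaffolds. Of the 34 genes tested, 2 passed an adjusted p of 0.05 (limma, Benjamini-Hochberg over all 15535 genes), which is 5.88% where 10.7% of all genes tested passed. Both were zinc carriers and both were higher in De-HA: Slc39a13, which rose 1.59-fold, and Slc30a1, which rose 1.46-fold. Over all genes 6.46% passed as higher and 4.29% as lower, and none of the metal handling genes passed as lower. At an unadjusted p under 0.05 the count was 12 of 34 genes (35.3%), 9 higher and 3 lower, beside 33.6% of all genes. The log2 fold changes of the 34 genes, De-HA over FeMnSi, ran from -0.53 to 0.67 with a median of 0.12, and the median of all genes tested was 0.10. No member's fold change reached 2-fold in either direction, where 264 of all genes (1.7%) did. For 33 of the 34 the 95% interval lay inside a 2-fold change in either direction, beside 87.6% of all genes, and Atp2c1 was the exception.

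**Figure D1:**
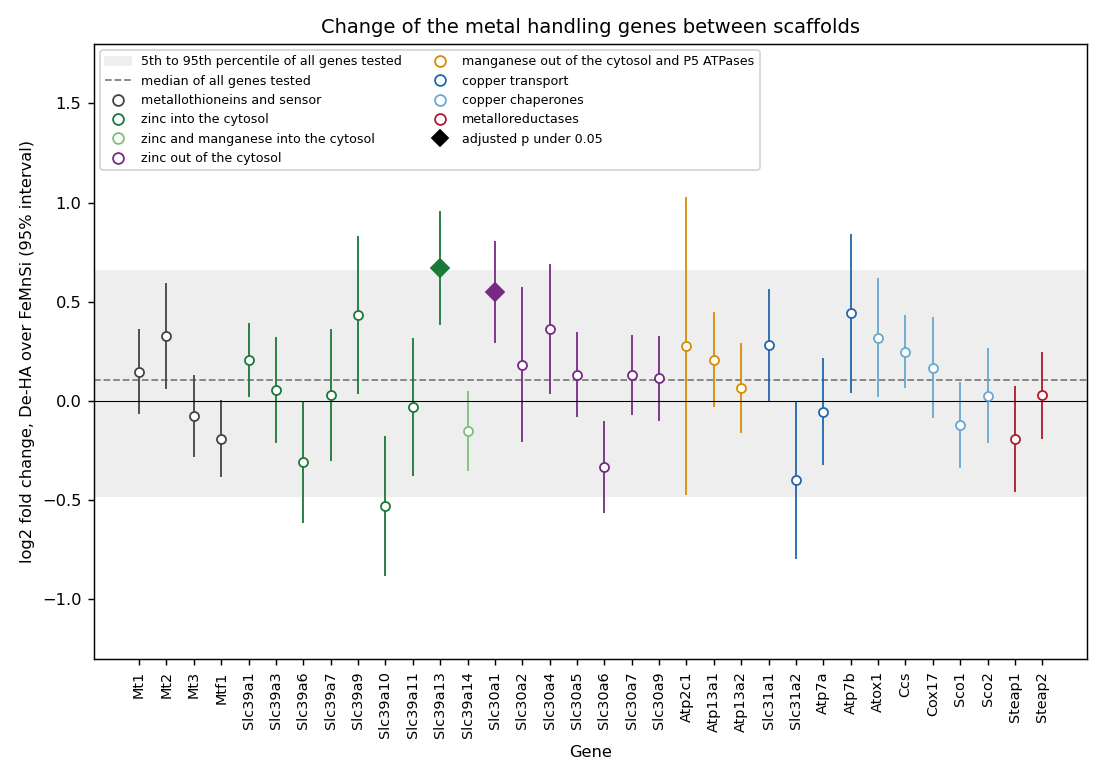
Log2 fold change, De-HA over FeMnSi, of the 34 genes tested (circles, coloured by role, with 95% intervals from limma, n = 3 arrays per group); diamonds mark the 2 genes past an adjusted p of 0.05, Slc39a13 and Slc30a1. The grey band runs from the 5th to the 95th percentile of all 15535 genes (-0.48 to 0.65) and the dashed line is their median (0.10); Slc39a13 and Slc39a10 are the 2 points outside the band.

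The choice of scaling moves these values, and quantile normalization moves some genes more than others. From 75th percentile scaling to quantile normalization, Mt1 went from 0.15 to -0.08 and Slc30a4 from 0.36 to 0.13. Slc30a1 went from 0.55 to 0.53, and Mtf1 stayed at -0.19. The median of all genes was 0.10 after scaling to the 75th percentile and 0.0035 after quantile normalization, and the median of the metal handling genes was 0.12 and 0.04. Quantile normalization called 10.1% of all genes, with 4.41% higher and 5.66% lower, and called the same pair of members, Slc39a13 and Slc30a1. A value near 0.10 is therefore a change like that of the middle gene.

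Every De-HA array lay above every FeMnSi array for 10 of the 34 genes (29.4%), where 25.4% of all genes did, and below every FeMnSi array for 4 genes (11.8%), where 13.7% did. Grouped by metal, 2 of 19 zinc genes tested rose (10.5%, near the 10.7% of all genes). Neither the 3 genes listed under manganese, the zinc and manganese carrier Slc39a14 nor the 11 copper genes gave a call. The lists are short, and no difference between metals was tested. The plot of every array shows how narrow the spread is for most of them.

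**Figure D2:**
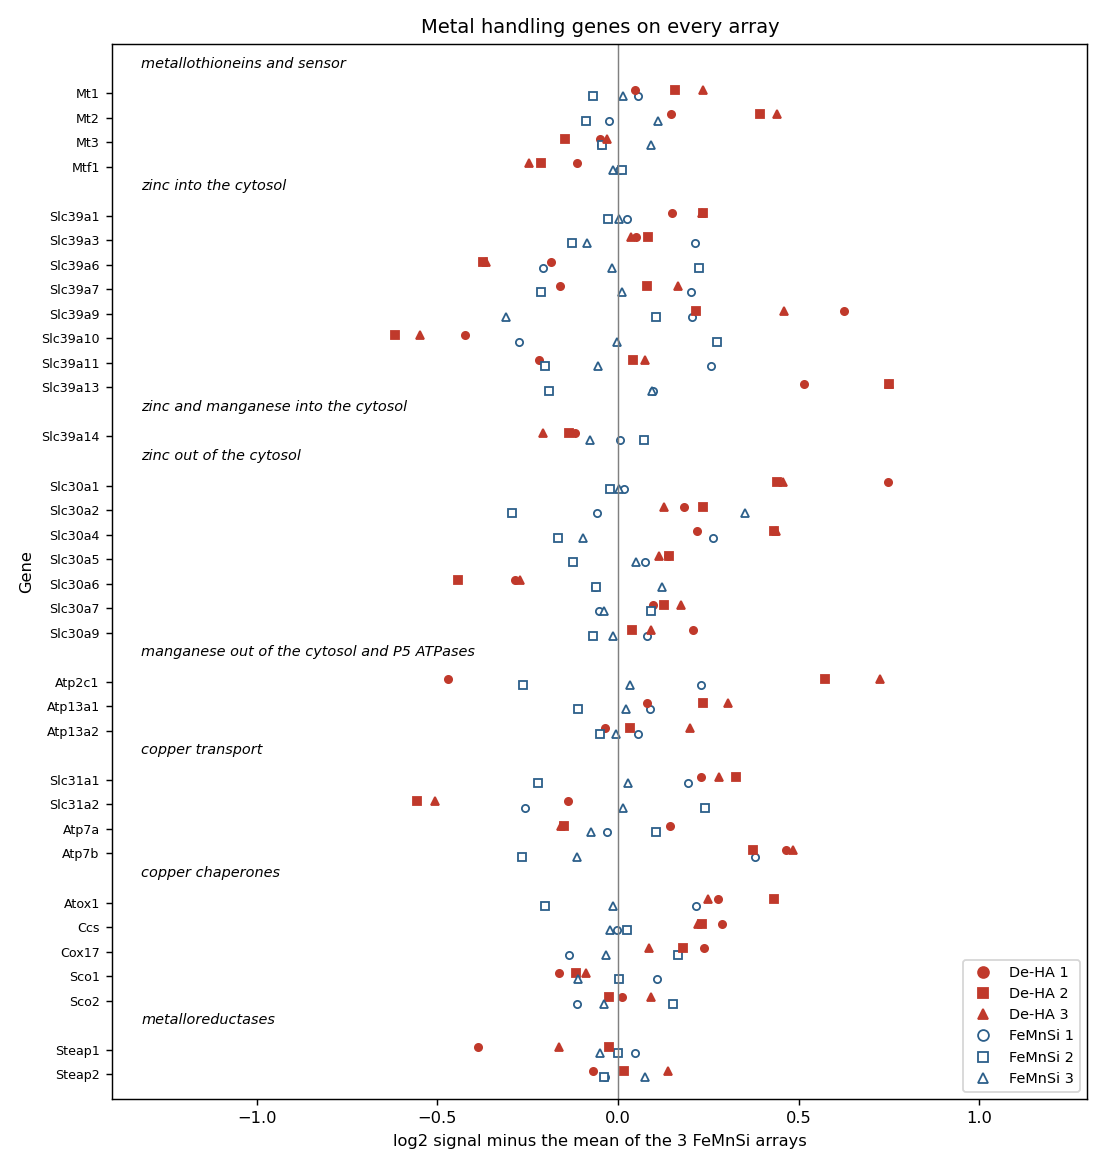
Log2 signal of each of the 34 genes on every array, minus the mean of the 3 FeMnSi arrays of that gene, with filled red symbols for De-HA and open blue symbols for FeMnSi, and 1 symbol shape per replicate number. The De-HA points of Slc39a13 and Slc30a1 stand clear to the right, those of Slc39a10 and Slc30a6 to the left, and for Atp2c1 De-HA 1 lies on the other side of 0 from De-HA 2 and 3.

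The sensor and its targets come first. Mt1 and Mt2 encode the metallothioneins made in most tissues, Mt3 a form known from brain, and Mtf1 the factor that senses zinc. The bases next to the start sites of Mt1, Mt2 and Slc30a1 are shown because metal response elements there tie the 3 genes to MTF1. Each line holds the 250 bases before the start site in RefSeq (build GRCm38.p6), 5′ to 3′ on the gene's own strand, and capitals mark matches to the core of the element, TGCACNC or TGCGCNC, on either strand. Mt1 is chr8:94178839-94179088 on the plus strand, Mt2 is chr8:94172368-94172617 on the plus strand, and Slc30a1 is chr1:191906531-191906780 on the plus strand.
Mt1: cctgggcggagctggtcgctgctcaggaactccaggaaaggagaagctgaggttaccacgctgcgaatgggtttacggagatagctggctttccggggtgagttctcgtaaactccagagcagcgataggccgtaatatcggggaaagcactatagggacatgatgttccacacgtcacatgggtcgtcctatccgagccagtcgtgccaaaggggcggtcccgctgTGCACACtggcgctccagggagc
Mt2: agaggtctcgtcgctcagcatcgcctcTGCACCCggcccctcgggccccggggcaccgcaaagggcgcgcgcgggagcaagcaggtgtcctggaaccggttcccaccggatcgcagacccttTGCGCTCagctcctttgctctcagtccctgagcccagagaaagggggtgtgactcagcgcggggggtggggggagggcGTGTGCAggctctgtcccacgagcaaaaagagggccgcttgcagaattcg
Slc30a1: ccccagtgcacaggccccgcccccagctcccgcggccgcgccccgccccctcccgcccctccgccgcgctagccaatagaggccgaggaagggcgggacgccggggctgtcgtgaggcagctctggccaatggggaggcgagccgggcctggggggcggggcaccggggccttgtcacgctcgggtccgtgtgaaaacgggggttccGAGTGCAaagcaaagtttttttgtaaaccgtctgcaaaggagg

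More matches lie just after these RefSeq starts. Where transcription starts in these cells was not tested. The 30-base stretches that hold them are printed below with the only match of Slc39a13, the other gene that rose. They are chr8:94179088-94179117 (plus) for Mt1, chr8:94172610-94172639 (plus) for Mt2, chr1:191906799-191906828 (plus) for Slc30a1 and chr2:91070281-91070310 (minus) for Slc39a13.
Mt1: ctcTGCACTCcgcccgaaaagTGCGCTCgg
Mt2: agaattcgggtcGTGCGCAggcccaggggc
Slc30a1: cgcctccgggccGAGCGCAgtcgccgcgga
Slc39a13: gtgtgacgtggcTGCACGCcgggggtggct

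Counted over 250 bases before and 50 after the start, Mt2 held 4 matches, Mt1 held 3, Slc30a1 held 2 and Slc39a13 held 1. Of 32851 RefSeq windows of the same 300 bases, 25.7% held at least 1 match, 7.11% at least 2, 1.97% at least 3 and 0.517% at least 4. A window was listed for 34 of the 39 genes, and none for Slc39a4, Slc39a6, Slc39a14, Ccs and Cox17. Those 34 genes have 41 windows, of which 20 (48.8%) held at least 1 match. At least 3 matches were found in 4 genes, which are Mt1, Mt2 and the zinc exporter Slc30a4, each tested, and the manganese exporter Slc30a10, which was too dim. These are matches of letters in a window and not measured binding. Matches on opposite strands may overlap and are then counted separately.

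Of the 4 genes whose windows are shown, Slc30a1 and Slc39a13 passed the test and Mt1 and Mt2 did not, and all 4 log2 differences were above 0 when scaled to the 75th percentile. Mt1 gave log2 signals of 4.53, 4.64 and 4.72 in De-HA and of 4.54, 4.41 and 4.50 in FeMnSi, in the order of replicates 1, 2 and 3, as for every gene below. De-HA 1 lay within the FeMnSi range, so the groups overlapped. The difference was 0.15 ± 0.09 (SE, n = 3 per group), with a 95% interval of -0.07 to 0.36 and an adjusted p of 0.277, and it was -0.08 after quantile normalization. A change in Mt1 above 0.36 or below -0.07 in log2 signal lies outside that interval.

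Mt2 stood at 3.94, 4.19 and 4.23 on the De-HA arrays and at 3.77, 3.71 and 3.91 on the FeMnSi arrays. All De-HA arrays were above all FeMnSi arrays, with De-HA 1 and FeMnSi 3 next to each other. The log2 difference was 0.33 ± 0.11 (SE, n = 3 per group; adjusted p = 0.0997, limma), and it was 0.35 within slide 1 and 0.14 after quantile normalization. It did not pass the threshold. Mt1 and Mt2 are close in sequence, and whether their probes cross-hybridise was not tested.

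Mt3 gave -0.08 (adjusted p = 0.558). Mtf1 stood at -0.13, -0.23 and -0.26 in De-HA and at -0.01, -0.01 and -0.03 in FeMnSi by its brightest probe. The De-HA arrays were all below the FeMnSi arrays, by a log2 difference of -0.19 ± 0.08 (SE, n = 3 per group; adjusted p = 0.153). The 3 Mtf1 probes did not run the same way, with log2 differences from -0.74 to 0.41, so no direction is given for the gene. The 4 genes of this group had a median of 0.04.

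Slc30a1 encodes ZnT1, the carrier that exports zinc across the plasma membrane. It stood at -0.47, -0.78 and -0.76 in De-HA and at -1.20, -1.24 and -1.22 in FeMnSi. The FeMnSi arrays lay within a narrow range, all De-HA arrays were above them, and De-HA 1 was the highest. The gene rose by 0.55 ± 0.11 in log2 signal (SE, n = 3 per group; 95% interval 0.29 to 0.80; adjusted p = 0.0285, limma), and by 0.53 after quantile normalization. Within slide 1 the difference was 0.53. With the slide as a block the adjusted p was 0.154, in a fit that called 1.16% of all genes. The call held in 1 of the 6 fits that each leave out an array, the one without FeMnSi 1 (adjusted p = 0.0255), and the adjusted p was 0.0571 to 0.101 in the other five. Slc30a1 thus rose where Mt1 and Mt2, which share its regulator, did not pass the test; the difference between these genes was not tested.

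None of the other ZnT genes passed the test, and most of them load zinc into organelles. Slc30a5, Slc30a6 and Slc30a7 encode the carriers that bring zinc into the Golgi and so to alkaline phosphatase. Their log2 differences were 0.13, -0.33 and 0.13. Slc30a6 was -2.13, -2.29 and -2.11 in De-HA against -1.91, -1.90 and -1.72 in FeMnSi. All De-HA arrays were below all FeMnSi arrays, with a log2 difference of -0.33 ± 0.10 (SE, n = 3 per group; adjusted p = 0.0730). Slc30a4, which fills vesicles and is known for zinc supply to milk, gave 0.36 over all arrays (adjusted p = 0.122) and 0.10 within slide 1. Slc30a2, another vesicle carrier, gave 0.18, and Slc30a9, a mitochondrial carrier placed here by its family and not by direction, gave 0.11. Of the 8 ZnT genes listed here, 7 were tested, 1 rose and none fell, with a median of 0.13. The dim one, Slc30a3, fills synaptic vesicles.

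Among the importers, Slc39a13 was the only one to pass. It encodes ZIP13, which releases zinc from the Golgi and vesicles into the cytosol and whose loss causes defects of bone, teeth and connective tissue. Its log2 signal was 2.72, 2.95 and 2.95 in De-HA and 2.30, 2.01 and 2.30 in FeMnSi. The groups did not overlap, with FeMnSi 2 the lowest and De-HA 1 nearest to FeMnSi. The gene rose by 0.67 ± 0.12 (SE, n = 3 per group; 95% interval 0.38 to 0.96; adjusted p = 0.0232, limma), 0.57 within slide 1 and 0.56 after quantile normalization. The slide block gave an adjusted p of 0.152. The call held in 2 of the 6 fits that leave out an array, those without De-HA 1 (adjusted p = 0.0459) and without FeMnSi 1 (adjusted p = 0.0179), and the adjusted p was 0.0549 to 0.0971 in the other four.

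Slc39a10, a ZIP carrier of the plasma membrane, had the lowest value of the tested members. It stood at -0.94, -1.14 and -1.07 in De-HA and at -0.79, -0.24 and -0.52 in FeMnSi. FeMnSi 1 was the FeMnSi array nearest to De-HA. The log2 difference was -0.53 ± 0.15 (SE, n = 3 per group; 95% interval -0.88 to -0.18) with an adjusted p of 0.0657, and it was -0.26 within slide 1. The gene passed as lower with median scaling (adjusted p = 0.0454), normexp background correction (adjusted p = 0.0449), an intensity trend (adjusted p = 0.0370) and without FeMnSi 1 (adjusted p = 0.0177).

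Slc39a6, related to Slc39a10 and also at the plasma membrane, gave a log2 difference of -0.31 (adjusted p = 0.150) and -0.10 within slide 1. The plasma membrane importers Slc39a1 and Slc39a3 gave 0.21 and 0.06, and that of Slc39a1 was 0.00 after quantile normalization. Slc39a7, which lets zinc out of the endoplasmic reticulum and Golgi, gave 0.03 and Slc39a11 gave -0.03. Within slide 1 the values were -0.16 for Slc39a3, -0.17 for Slc39a7 and -0.29 for Slc39a11. Slc39a9, a Golgi carrier, gave 0.43 (adjusted p = 0.128) from a dim probe that was well above background on 2 of the 3 arrays of each group. Of the 9 zinc importers listed, 8 were tested, 1 rose and none fell, with a median of 0.04. The dim one is Slc39a4, the zinc importer of the gut.

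Of the genes listed for manganese, 4 could be measured: Slc39a14, Atp2c1, Atp13a1 and Atp13a2. None of them passed the test in limma, and none had an unadjusted p under 0.05. Slc39a14, which takes up manganese, zinc and iron, gave a log2 difference of -0.15 (adjusted p = 0.233). Its relative Slc39a8 and the manganese exporter Slc30a10 were too dim to test, so neither has a value here. Atp2c1, the Golgi pump for calcium and manganese, varied most between arrays. It was 1.61, 2.65 and 2.81 in De-HA and 2.31, 1.82 and 2.11 in FeMnSi. De-HA 1 was the lowest of all 6 arrays, and De-HA 2 and 3 were the highest. The log2 difference was 0.28 ± 0.32 (SE, n = 3 per group; 95% interval -0.47 to 1.03; adjusted p = 0.555), and it was 0.65 without De-HA 1 (adjusted p = 0.0870). The ATPases Atp13a1, of the endoplasmic reticulum, and Atp13a2, of the lysosome, gave 0.21 and 0.07. They were placed beside the manganese exporters by the list, and whether they carry manganese was not tested.

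None of the 11 copper genes tested passed in limma, and their median was 0.03. At an unadjusted p under 0.05, 3 were higher and 1 was lower (36.4%, near the 33.6% of all genes). Among the transporters, the importer Slc31a1 gave a log2 difference of 0.28 (adjusted p = 0.155) and 0.09 within slide 1. Slc31a2, a related protein of intracellular membranes, gave -0.40 (adjusted p = 0.147) by its brighter probe and -0.02 by the other. Atp7a, the pump that loads copper enzymes such as lysyl oxidase, gave -0.05.

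Atp7b, the related pump best known from liver, stood at -3.36, -3.45 and -3.34 in De-HA and at -3.45, -4.09 and -3.94 in FeMnSi. FeMnSi 1, on the same slide as De-HA, lay level with the De-HA arrays, and FeMnSi 2 and 3 were lower. The log2 difference was 0.44 ± 0.17 over all arrays (SE, n = 3 per group; adjusted p = 0.124) and 0.06 within slide 1.

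The chaperones lay close together. Ccs, which loads copper into superoxide dismutase, was 3.06, 3.01 and 3.00 in De-HA and 2.77, 2.80 and 2.75 in FeMnSi. The groups did not overlap and the arrays within each were close, with a log2 difference of 0.25 ± 0.08 (SE, n = 3 per group; adjusted p = 0.0831), 0.25 within slide 1 and 0.10 after quantile normalization. Atox1, which hands copper to the pumps, gave 0.32 (adjusted p = 0.133) over all arrays and 0.10 within slide 1. The chaperones of cytochrome c oxidase, Cox17, Sco1 and Sco2, gave 0.17, -0.12 and 0.03, and a further probe of Sco1 gave 0.20. Steap1 and Steap2, of the metalloreductase family, gave -0.19 and 0.03, and a further kept probe of Steap2 gave -0.12.

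FeMnSi 1 lay within the range of the De-HA arrays for 12 of the 34 genes (35.3%, beside 34.9% of all genes), FeMnSi 2 for 6 (17.6%, beside 19.6%) and FeMnSi 3 for 8 (23.5%, beside 24.5%). These shares are near those of all genes. Within slide 1 the difference was smaller in size or opposite in sign for 22 of 34 genes (64.7%, beside 69.9% of all genes), and opposite for 2, Slc39a3 and Slc39a7 (5.88%, beside 21.6%). Without FeMnSi 1, the fit called 4611 genes (29.7%) and 10 of the 34 members (29.4%), shares close to each other. The members were Slc39a13, Slc30a1, Slc30a4, Slc31a1, Atp7b and Atox1 as higher and Slc39a6, Slc39a10, Slc30a6 and Slc31a2 as lower. With the slide as a block no member passed. Slide 2 holds FeMnSi arrays only, so there the slide and the group cannot be told apart.

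**Figure D3:**
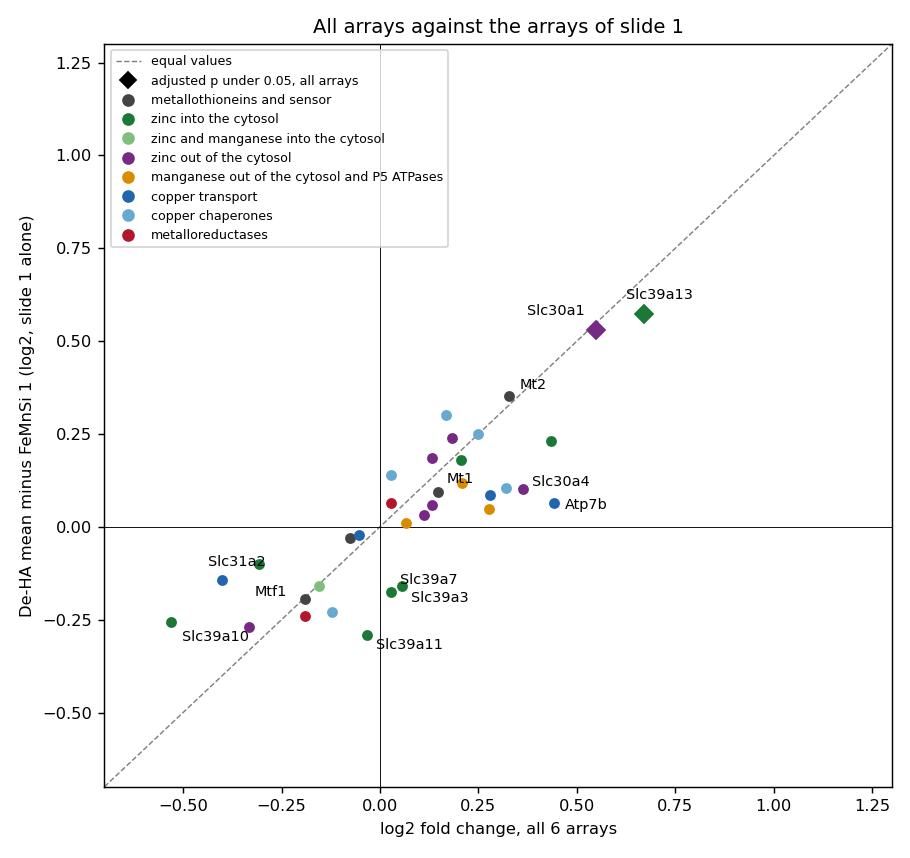
Log2 difference within slide 1 (mean of De-HA 1, 2 and 3 minus FeMnSi 1, y axis) against the log2 fold change over all 6 arrays (x axis) for the 34 genes, coloured by role; the dashed line marks equal values and diamonds the 2 genes past an adjusted p of 0.05. Slc30a1, Slc39a13 and Mt2 lie near the line, while Atp7b (0.44 against 0.06) and Slc30a4 (0.36 against 0.10) lie well below it.

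Lists of zinc genes, MTF1 targets, manganese genes and copper genes outside the 39 were counted in the same fit, to be read beside 10.7% of all genes called, 6.46% higher and 4.29% lower, and a median of 0.10. Of 23 further copper genes, 22 were tested, 3 rose and 2 fell (22.7% called), with a median of 0.12. Of 5 further targets of MTF1, 4 were tested and 1 rose (25.0%), with a median of 0.15. Of 9 further manganese genes, 7 were tested and 1 fell (14.3%), with a median of -0.19. These lists were also chosen with earlier results of these data known, and no list was tested against the rest. Of 7 further zinc genes, 4 were tested and none passed in limma (1 was higher at an unadjusted p under 0.05), with a median of 0.13.

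Aoc3, a copper amine oxidase of the cell surface, was -1.21, -1.08 and -1.22 in De-HA and -2.89, -2.99 and -2.65 in FeMnSi. It rose 3.19-fold, by 1.67 ± 0.11 in log2 signal (SE, n = 3 per group; adjusted p = 0.00145, limma; 0.0169 with the slide block). Both groups were tight and far apart. For this gene and those below, the slide block takes the difference of De-HA from FeMnSi 1 alone, which was 1.72 for Aoc3.

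Cp, ceruloplasmin, the copper ferroxidase of plasma, was 2.22, 1.93 and 1.92 in De-HA and 0.91, 1.01 and 0.85 in FeMnSi. The groups did not overlap and De-HA 1 was the highest. Cp rose 2.14-fold (adjusted p = 0.00531; 0.0452 with the slide block). Sod3, the extracellular copper and zinc superoxide dismutase, stood at 2.33, 2.50 and 2.41 against 1.81, 1.45 and 1.57, with no overlap, and rose 1.75-fold (adjusted p = 0.0124; 0.0790 with the slide block). When an array was left out, Aoc3 and Cp passed in all 6 fits and Sod3 in 3, missing the threshold without De-HA 2, De-HA 3 or FeMnSi 3 (adjusted p = 0.0551 to 0.0632).

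Loxl1, a lysyl oxidase relative that crosslinks elastin, fell: it was -0.96, -1.03 and -0.96 in De-HA and -0.29, -0.48 and -0.48 in FeMnSi, and was 1.48-fold higher in FeMnSi (adjusted p = 0.0165; 0.0494 with the slide block). FeMnSi 1 was the highest array. A further Loxl1 probe gave -0.17, and with both probes averaged the call was lost (-0.37, adjusted p = 0.103). The call was also lost without De-HA 1, De-HA 2, De-HA 3 or FeMnSi 3 (adjusted p = 0.0523 to 0.0761). Cutc, an intracellular copper-binding protein, had the remaining call, a log2 difference of -0.45 (adjusted p = 0.0497; 0.312 with the slide block). Its call held without FeMnSi 1 and was lost without any other array (adjusted p = 0.0899 to 0.166), with normexp (adjusted p = 0.105) and with outlier spots kept (adjusted p = 0.0506).

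Outside copper, Csrp1, a LIM-domain protein of the cytoskeleton listed as an MTF1 target, was 4.80, 5.07 and 5.07 in De-HA and 4.28, 3.88 and 4.06 in FeMnSi. It rose by 0.91 ± 0.13 (SE, n = 3 per group; adjusted p = 0.0131; 0.0897 with the slide block), and by 0.70 within slide 1. De-HA and FeMnSi did not overlap. Slc40a1, ferroportin, the exporter of iron that can also carry manganese, was -1.09, -0.74 and -0.96 in De-HA and -0.12, 0.22 and -0.05 in FeMnSi. It fell by 0.94 ± 0.14 in log2 signal (SE, n = 3 per group; adjusted p = 0.0123; 0.0911 with the slide block), and no De-HA array reached the FeMnSi range. The call of Csrp1 was lost without De-HA 2, De-HA 3 or FeMnSi 3 (adjusted p = 0.0557 to 0.0666), and that of Slc40a1 without De-HA 3 or FeMnSi 3 (adjusted p = 0.0631 and 0.0546).

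**Figure D4:**
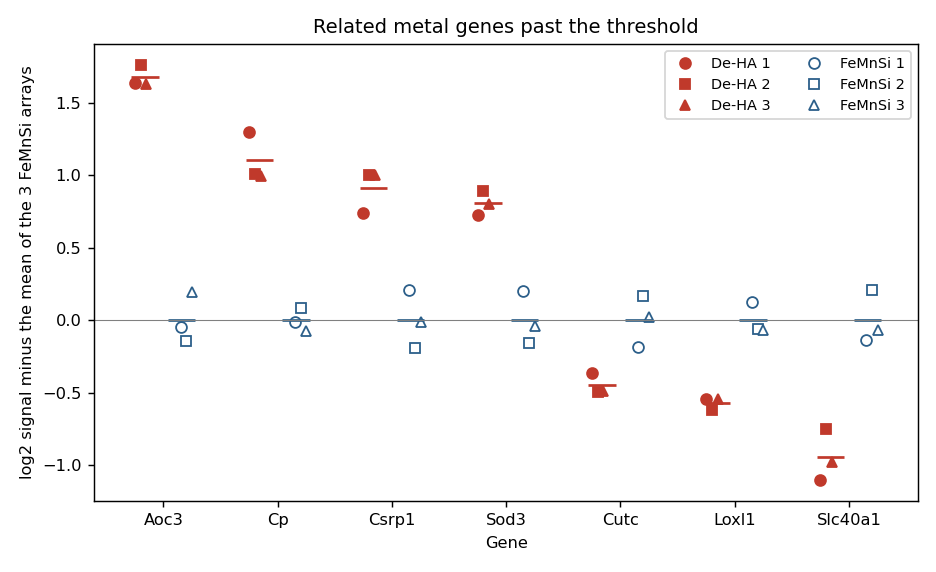
Log2 signal on every array minus the mean of the 3 FeMnSi arrays of the same gene (y axis) for the 7 related copper, manganese and MTF1-target genes past an adjusted p of 0.05, with filled red symbols for De-HA, open blue symbols for FeMnSi, and short lines at the group means (n = 3 each). Aoc3 (1.67) and, after it, Cp stand highest and Slc40a1 (-0.94) lowest.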

How the data were processed

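Per the submitters' processing notes, the 6 Agilent 1-colour arrays were read with Feature Extraction (version 11.0.1.1). The authors deposited scanner intensity (processed signal, background-corrected per the file headers) and a table of log2 values whose columns all have a median of 5.78. These correlated with the log2 scanner signal at r = 0.9972 to 0.9996; how the table was scaled is not given in the sources used here.

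Here, log2 processed signal minus each array's 75th percentile was used. Control spots and outlier spots were left out, and spots of a probe were averaged. Of 39429 probes, 28380 were well above background on 3 or more arrays. Of these, 205 were dropped because all their spots on an array were outliers, among them the probes of Pgf (an MTF1 target) and Acan. The rest were kept. Of 28684 probes with a RefSeq accession, 27234 were named through it (RefSeq, GRCm38.p6), and 12195 probes in all stayed unnamed. The brightest probe stood for a gene (15535 genes). De-HA and FeMnSi were compared with limma 3.58.1 (R 4.3.3, lmFit and eBayes) and Benjamini-Hochberg adjustment at 0.05. The same fit was also run on data simulated from these arrays, with independent noise and no slide effect. The number of arrays limits the precision. Of these genes, 1003 were higher and 666 lower in De-HA.

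The alternatives were quantile and median scaling, normexp (offset 50), the deposited log2 table, other probe filters, a slide block, a replicate block, an intensity trend and leaving out each array. Normexp used median signals, and spots whose local background was an outlier got the array's median background. Motifs of 7 bases were searched in RefSeq promoter windows.

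The members and lists were chosen with earlier results of these data known. Values on every array are given for members past the threshold and for Mt1, Mt2, Mtf1 and Slc30a1, and for Slc39a10, Slc30a6, Atp2c1, Atp7b and Ccs, which were picked after their values were seen. In the related lists up to 4 genes past the threshold are named by smallest p; Cutc was added after its value was seen.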

Additional observations from a re-analysis of the deposited data

How the results depend on the processing

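With 3 arrays a group on 2 slides, the calls are sensitive. Of all genes, 1669 passed as reported, 519 with no filter on dim probes, 180 with the slide block, 36 on slide 1 alone (De-HA against FeMnSi 1, which as a lone array is assumed to vary like De-HA), and 227 to 4611 when an array was left out. Of the members, 2 passed as higher as reported and 0 with no filter, the slide block or slide 1 alone; leaving out an array gave 0 to 6. The first brings in more genes and slide 1 alone has fewer samples. The slide block too sets De-HA against FeMnSi 1 alone, since slide 2 holds no De-HA array. Otherwise the cause was not tested. None passed as lower as reported, 1 (Slc39a10) with median scaling, normexp or an intensity trend, and 0 to 4 when an array was left out. In all 18 alternatives no called member changed sign. Scaling moved the split of all calls, from 1003 higher and 666 lower to 685 and 880 (quantile), 463 and 777 (median), 648 and 921 (deposited log2 table) and 1393 and 646 (normexp).

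Deviations of same-numbered arrays from their group means gave r of 0.007, -0.106 and 0.115 for numbers 1 to 3. The FeMnSi deviations also hold the difference between slides. These values therefore cannot show whether same-numbered samples share a culture or a batch. The replicate block called 693 genes and 0 members (adjusted p = 0.0582 for Slc39a13 and 0.0601 for Slc30a1). Signal over background limits 5 members, which have no value, and Slc39a9.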
